A study of Mus musculus with 18 samples.

Results

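RNA of mouse epidermis carrying an oncogenic Hras was compared between embryos given an shRNA against Eif2b5 and embryos given a scrambled shRNA. The comparison rests on 3 RNA libraries labelled HrasG12V shEif2b5 and 3 labelled HrasG12V shScram, which are 6 of the 18 libraries of the study, and on every gene of its table of reads over coding sequences. The HrasG12V animals were of strain FR-HrasG12V. The shRNAs were injected in utero at E9.5, epidermis was taken at E18.5, and cycloheximide, which halts translating ribosomes, was present through the isolation of the cells. All embryos carried an shRNA. The scrambled shRNA was also given to WT mice (WT shScram, 3 RNA libraries), whose Gt(ROSA)26Sor locus holds a reporter of tdTomato and EGFP. Each group also had 3 libraries of ribosome footprints, the stretches of mRNA that ribosomes protect. The labels name no animals, litters or share of transduced cells, so p-values measure only the spread between libraries, which may be technical.

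Eif2b5 encodes the epsilon subunit of eIF2B, the part that exchanges GDP for GTP on initiation factor eIF2. Stress kinases phosphorylate eIF2 and so block eIF2B, which lowers general initiation while ATF4 and its target genes are induced: this is the integrated stress response. Hras passes growth factor signals to the ERK kinases. In skin, basal keratinocytes express Krt5 and Krt14 and differentiating cells Krt1 and Krt10, while wounded, hyperproliferative and hair follicle epithelium expresses Krt6a, Krt6b, Krt16 and Krt17, the stress keratins.

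Read totals over coding sequences were 2209327 to 2812627 in the Eif2b5 shRNA libraries, 1771365 to 5214473 in the scramble libraries and 2523896 to 5505386 in WT, with scramble library 2 the shallowest of all. The source is labelled as basal cells, and the basal keratin Krt5 stood at 4150 to 8630 CPM (counts relative to the scaled library size), but the suprabasal keratins Krt1 (19900 to 49900 CPM) and Krt10 (12000 to 44700 CPM) were abundant in all 9 RNA libraries. The 14 dermal fibroblast markers summed to 1570 to 1760 CPM with the Eif2b5 shRNA, 1650 to 2300 with the scramble and 1580 to 3230 in WT. Immune markers summed to 27.7 to 36.6, 35.5 to 48.5 and 30.7 to 36.3 CPM in the same order, with the Langerhans cell gene Cd207 at 0. The 13 melanocyte markers summed to 560 to 715, 733 to 878 and 473 to 680 CPM. The 10 erythroid markers summed to 4.26 to 9.39, 7.22 to 24.6 and 6.15 to 16.6 CPM, with Alas2 at 2.13 to 21.2 CPM over the 9 RNA libraries. Of the 10, 7 globin genes were at 0 in every RNA library. In such bulk samples fewer cells of a type and less RNA per cell cannot be told apart, and the part of these markers in the results below was not tested.

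The scramble libraries did not resemble each other. Scramble library 2 correlated across genes at 0.945 and 0.946 with scramble libraries 1 and 3, which correlated with each other at 0.969. Its correlations were higher with the Eif2b5 shRNA libraries (0.955, 0.968 and 0.96) and with WT (0.958, 0.961 and 0.955). A trend with coding GC touches every result. In scramble libraries 1 and 3, genes with GC-poor coding sequences had high counts and genes with GC-rich ones low counts. Across 11045 tested genes, the correlation of a library's log2 CPM deviation from the 9-library mean with coding GC (Spearman's rho, across genes, which are not independent) was -0.45 in scramble library 1 and -0.59 in library 3. In scramble library 2 it was 0.03. It was 0.32, 0.13 and 0.49 in the Eif2b5 shRNA libraries, and 0.32, 0.26 and -0.07 in WT. The difference between the groups therefore carried the trend: the gene-wise log2 fold changes correlated with coding GC at 0.55, and at 0.2 when scramble libraries 1 and 3 were left out. In the footprint libraries the same contrast gave 0.15. Whether this trend arose in the cells or in library preparation was not tested.

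**Figure D1:**
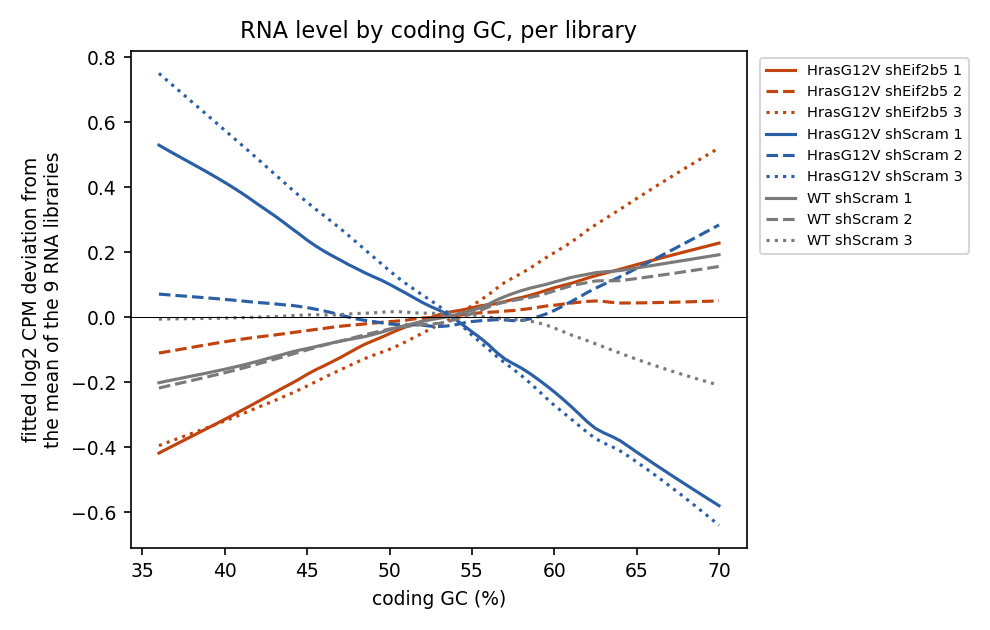
Fitted (loess) deviation of log2 CPM from the mean of the 9 RNA libraries (vertical axis) against coding GC in percent (horizontal axis), 1 line per library, coloured by group. The lines of HrasG12V shScram libraries 1 and 3 fall from GC-poor to GC-rich genes, that of library 2 does not, and those of the 3 HrasG12V shEif2b5 libraries rise.

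Windows of 60 bases from the middle of the longest coding exon show how far coding sequences range in G and C, which are in capitals (mm10, 5′ to 3′ on the coding strand, GENCODE M21 gene models). They are from genes described below, in order of coding GC.
Zfp930: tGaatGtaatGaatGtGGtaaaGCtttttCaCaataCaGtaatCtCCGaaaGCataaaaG
Lamp2: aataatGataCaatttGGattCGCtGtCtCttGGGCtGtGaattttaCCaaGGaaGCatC
Krt6b: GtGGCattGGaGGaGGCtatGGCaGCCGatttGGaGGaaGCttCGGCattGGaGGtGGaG
Csf2ra: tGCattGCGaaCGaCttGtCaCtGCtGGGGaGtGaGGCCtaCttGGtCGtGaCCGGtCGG
Tusc1: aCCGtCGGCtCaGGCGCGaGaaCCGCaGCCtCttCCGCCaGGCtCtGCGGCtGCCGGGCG
The windows lie at chr8:69228380-69228439 (Zfp930, plus strand, coding exon 4), chrX:38440208-38440267 (Lamp2, minus strand, coding exon 3), chr15:101679941-101680000 (Krt6b, minus strand, coding exon 1), chr19:61226270-61226329 (Csf2ra, minus strand, coding exon 5) and chr4:93335084-93335143 (Tusc1, minus strand, coding exon 1). They hold 19, 23, 35, 36 and 45 G or C in 60 bases. Over the whole coding sequence, GC was 38.6% in the zinc finger gene Zfp930, 42.5% in Lamp2, 56.3% in Krt6b, 67.6% in Csf2ra and 76.7% in Tusc1. Zfp930 and Tusc1 were called lower and higher with the Eif2b5 shRNA but not once coding GC was taken into account, while Lamp2, Krt6b and Csf2ra stayed called.

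Of 11096 genes tested, 1444 (13%) differed between the Eif2b5 shRNA and scramble libraries at an adjusted p under 0.05, the rule for a call here: 580 (5.23%) were higher and 864 (7.79%) lower with the Eif2b5 shRNA. Adjusted p-values are from edgeR's quasi-likelihood test with Benjamini-Hochberg adjustment unless another tool is named. Libraries of the groups did not overlap for 3170 genes (28.6%). The calls followed coding GC. Genes were cut into 10 bins of coding GC. In the bin with the lowest GC (35.2 to 44.6%) 28.2% were called lower and 0.181% higher, with a median log2 fold change of -0.51, and in the highest bin (60.7 to 77.9%) 0.814% were called lower and 15.9% higher, with a median of 0.43. A second fit gave every library its own offset for coding GC and coding length, which brought the correlation of fold change with GC to 0.03. It called 602 genes (5.43%), 278 higher (2.51%) and 324 lower (2.92%), and kept 446 of the 1444 calls (164 higher, 282 lower). In the lowest bin of GC it called 4.16% higher and 2.62% lower, and in the highest 1.45% higher and 0.995% lower.

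**Figure D2:**
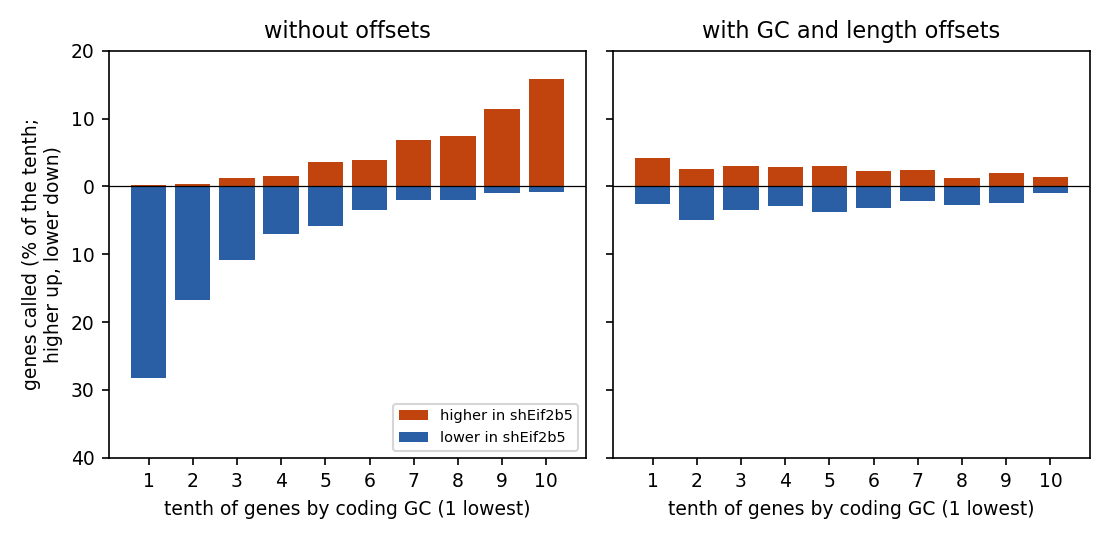
Share of tested genes called higher (upward bars) or lower (downward bars) with the Eif2b5 shRNA, in percent of each of 10 bins of genes ordered by coding GC, without (left) and with (right) offsets for coding GC and length. On the left lower calls fall from 28.2% to 0.814% and higher calls climb from 0.181% to 15.9%; on the right no bin exceeds 4.89% in either direction.

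Single libraries also set the count. It was 480 without Eif2b5 shRNA library 1, 197 without library 3, 404 without scramble library 1, 445 without scramble library 3 and 3150 without scramble library 2. With scramble libraries 1 and 3 both left out, library 2 alone stood for its group and was assumed to vary like the others. Then 17 genes (0.148%) were called, 3 higher and 14 lower, of which 15 were among the 1444 and moved the same way. The genes that the results turn on are therefore given with their values under the offsets or without those libraries.

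The targeted gene did not pass the test. Eif2b5 stood at 134, 128 and 143 CPM in the Eif2b5 shRNA libraries, at 127, 388 and 145 in the scramble libraries and at 158, 179 and 159 in WT. Scramble library 2 was high, library 1 lay just below and library 3 just above the range of the Eif2b5 shRNA libraries, so the groups overlapped. The log2 fold change was -0.68 ± 0.37 (SE, adjusted p = 0.257). Without scramble libraries 1 and 3 it was -1.52 (adjusted p = 6.98e-05), a contrast with scramble library 2 only. In footprints Eif2b5 stood at 82.7, 78.5 and 95.4 CPM against 91.9, 93.1 and 102 with the scramble, a log2 fold change of -0.16 ± 0.12 (adjusted p = 0.994). The level of the target thus did not set the Eif2b5 shRNA libraries apart from scramble libraries 1 and 3, and every direction given here follows the labels and not a measured loss of Eif2b5 RNA. Hras, the gene that is mutated in both groups, stood at 220, 282 and 307 CPM against 235, 181 and 216, with a log2 fold change of 0.35 ± 0.16 (adjusted p = 0.14). The F-box gene Fbxo32 stood at 8.14, 11.7 and 7.05 CPM against 5.92, 7.22 and 8.63 (0.32 ± 0.3, adjusted p = 0.494).

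The stress keratins rose. Krt6b, the type II keratin of wound edge and hair follicle companion cells, stood at 132, 148 and 132 CPM in the Eif2b5 shRNA libraries, at 47.5, 42.2 and 20.7 in the scramble libraries and at 4.05, 6.22 and 5.06 in WT. All 3 groups were separate, with WT lowest. The log2 fold change between the HrasG12V groups was 1.91 ± 0.23 (3.76-fold, adjusted p = 0.000512), 1.77 with the offsets and 1.7 without scramble libraries 1 and 3 (adjusted p = 0.000717 and 0.0011). Krt16, the type I keratin partner of both Krt6 proteins, stood at 342, 361 and 452 CPM against 199, 160 and 120, and at 66, 73.8 and 52.1 in WT. Its groups did not overlap either. Its log2 fold change was 1.27 ± 0.18 (2.41-fold, adjusted p = 0.00187), 1.13 with the offsets and 1.27 without scramble libraries 1 and 3 (adjusted p = 0.00284 and 0.0143). Krt6a, the close relative of Krt6b, stood at 25.2, 50.4 and 66.2 CPM against 14.1, 19.4 and 17.9, and at 10.5, 6.99 and 6.87 in WT. Eif2b5 shRNA library 1 was the lowest of its group but above every scramble library. Its log2 fold change was 1.48 ± 0.29 (adjusted p = 0.00633), 1.33 with the offsets (adjusted p = 0.013) and 1.27 without scramble libraries 1 and 3 (adjusted p = 0.335), and the call was also lost without Eif2b5 shRNA library 3 (adjusted p = 0.0505). The coding sequences of Krt6a and Krt6b are 97.8% identical (1622 of 1659 aligned bases), so reads may be split between them, and their separate values are uncertain. Krt16 shares 62.8% of aligned bases with Krt6b.

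Krt17, another type I keratin of follicles and wounds, rose too. It stood at 2500, 1780 and 2200 CPM against 1220, 1430 and 1430, with WT at 1420, 1080 and 1980, so that WT overlapped both groups. Its log2 fold change of 0.67 ± 0.2 (adjusted p = 0.0378) became 0.42 with the offsets and 0.6 without scramble libraries 1 and 3 (adjusted p = 0.217 and 0.429). Krt19, a keratin of follicle bulge and simple epithelium, stood at 11.8, 10.3 and 18.8 CPM against 5.73, 6.11 and 4.75, a log2 fold change of 1.3 ± 0.32 (adjusted p = 0.0168) that stayed called with the offsets (1.08, adjusted p = 0.0451).

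The footprints of the stress keratins were high in 2 of 3 Eif2b5 shRNA libraries, the same for each gene. Krt16 footprints stood at 102, 560 and 546 CPM in Eif2b5 shRNA libraries 1 to 3, at 133, 134 and 103 with the scramble and at 15.6, 23.4 and 27.8 in WT. Krt6b footprints stood at 68.8, 246 and 196 CPM against 45.9, 38.2 and 21.1, and Krt6a footprints at 27.2, 68.7 and 130 against 18.1, 13.7 and 18.8. Footprint library 1 of the Eif2b5 shRNA group was the lowest of its group in each, just below the scramble range for Krt16 and above it for Krt6b and Krt6a, and libraries 2 and 3 were far above it. The log2 fold changes were 1.71 ± 0.62, 2.28 ± 0.53 and 2.14 ± 0.57, and no gene passed the footprint test over 11448 genes (0%), with 519 at an unadjusted p under 0.05 and 1 called by the DESeq2 Wald test. Without footprint library 1 of that group, 31 genes (0.267%) were called, Krt16 (2.17 ± 0.16), Krt6a (2.55 ± 0.24) and Krt6b (2.66 ± 0.26) among them. Without library 2 or library 3 instead, 0 and 1 genes were called. Library 1 was the lowest of its group for all 3 keratins. Its omission therefore raises their change by itself and is no test of these 3 keratins. The difference between the footprint and RNA changes was not called for any of the 3 (adjusted p = 0.763, 0.634 and 0.794).

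**Figure D3:**
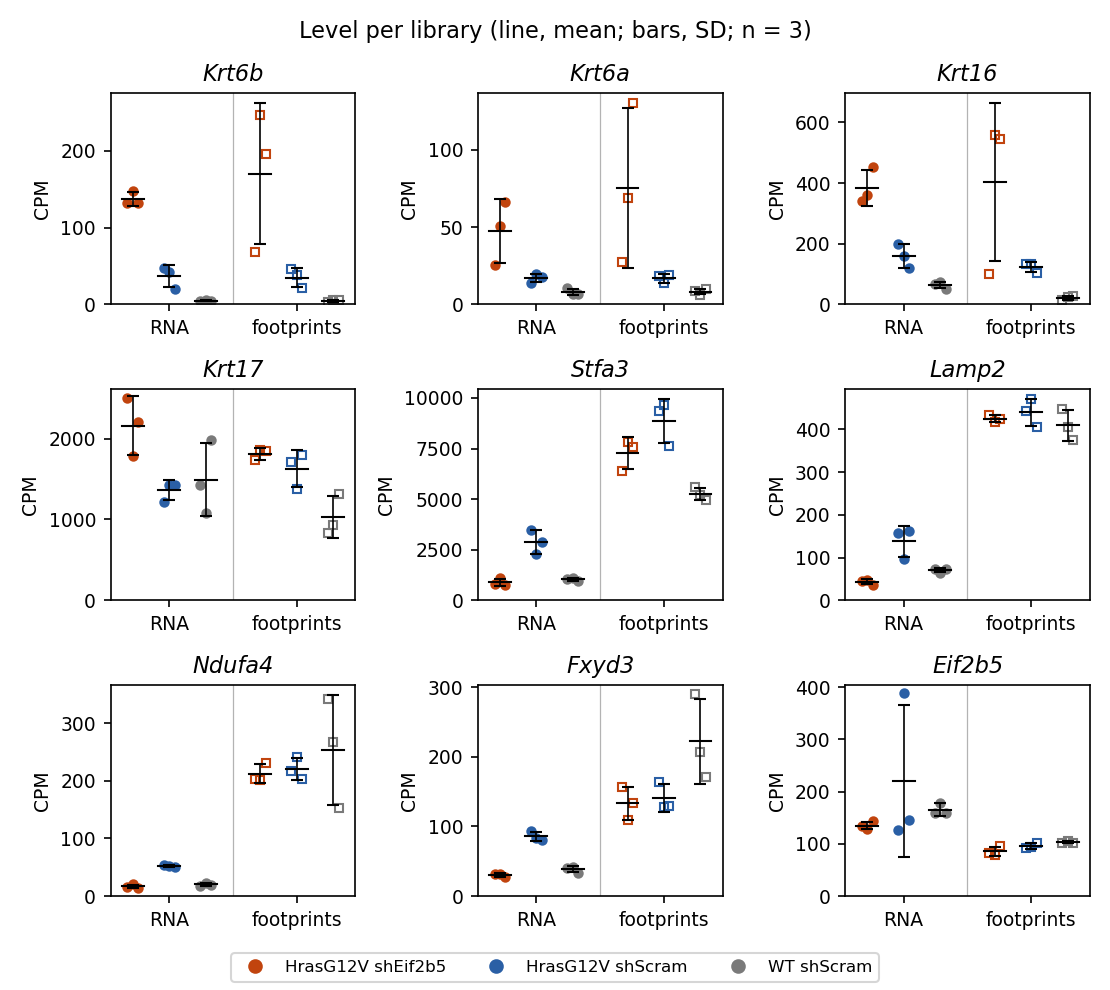
CPM per library in RNA (filled circles) and footprints (open squares) for 9 genes, coloured by group, with the mean (line) and SD (bars) of 3 libraries and every vertical axis starting at 0. Krt6b, Krt6a and Krt16 are highest in HrasG12V shEif2b5 RNA and lowest in WT; Stfa3, Lamp2, Ndufa4 and Fxyd3 are highest in HrasG12V shScram RNA with no such step in their footprints; Eif2b5 has 1 high scramble RNA library (388 CPM).

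Stfa3, a stefin that inhibits cysteine proteases, fell. It stood at 818, 1090 and 759 CPM in the Eif2b5 shRNA libraries and at 3490, 2270 and 2860 in the scramble libraries. WT, at 1030, 1120 and 945, overlapped the Eif2b5 shRNA group and not the scramble group. The log2 fold change was -1.69 ± 0.19 (3.24-fold lower, adjusted p = 0.000229), -1 with the offsets and -1.35 without scramble libraries 1 and 3 (adjusted p = 0.00284 and 0.00255). Its relatives Stfa2 (-1.2 ± 0.26, adjusted p = 0.0109) and Stfa1 (-1.05 ± 0.27, adjusted p = 0.0266) were at -0.44 and -0.36 with the offsets, where neither was called (adjusted p = 0.275 and 0.3). Stfa1 stood at 117, 147 and 140 CPM against 342, 145 and 342, so its groups overlapped, and it was at -0.11 without scramble libraries 1 and 3 (adjusted p = 0.887). The coding sequence of Stfa3 is 80.9% identical to that of Stfa2 and 84.5% to that of Stfa1. In the list of 21 wound and stress genes, 10 were tested, 4 rose (the keratins Krt6b, Krt16, Krt6a and Krt17) and 3 fell (the stefins), with a median log2 fold change of 0.06 beside -0.01 over all tested genes. With the offsets 3 rose and 1 fell. The remaining 11 did not pass the filter on low counts, and Defb3 was at 0 in all RNA libraries.

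Of the 1444 genes, 12 were called under the offsets and without scramble libraries 1 and 3 as well: Krt6b and Krt16 rose, and Stfa3, Lamp2, Ndufa4, Fxyd3, Emp1, Cd9, Plet1, Spcs1, Hist1h2af and Gm94 fell. Fxyd3, Emp1, Cd9, Plet1, Spcs1, Hist1h2af and Gm94 lie outside the naming rule and were chosen after their values were seen. That rule leaves out predicted gene models such as Gm94. The offsets and the omission of scramble libraries 1 and 3 were also combined, which left scramble library 2 alone in its group. Lamp2, Emp1, Cd9, Plet1, Spcs1 and Gm94 then lost the call, at log2 fold changes of -0.92, -0.91, -0.89, -1.48, -1.25 and -1.75. In WT, the mean of all 10 genes that fell among the 12 was nearer the Eif2b5 shRNA group than the scramble group. That of Krt6b and Krt16 was nearer the scramble group. WT was nearer the Eif2b5 shRNA group for 240 of 282 lower and 122 of 164 higher genes called with and without offsets. These positions are of CPM without offsets, so the coding GC trend of scramble libraries 1 and 3 is in them. The genes were chosen by the difference between the same HrasG12V groups, and the share over all tested genes was not taken. No return toward WT can therefore be read from these positions. Lamp2, a lysosomal membrane protein, stood at 45.9, 47.2 and 36.2 CPM against 157, 96.6 and 161, with WT at 73.7, 64.5 and 72.3. Scramble library 2 was the lowest of its group, yet above every other library. The log2 fold change was -1.69 ± 0.19 (3.22-fold lower, adjusted p = 0.000229), -1.2 with the offsets and -1.15 without scramble libraries 1 and 3 (adjusted p = 0.000717 and 0.021). Ndufa4, a small subunit of cytochrome c oxidase, stood at 16.3, 20.2 and 13.6 CPM against 53.8, 52.7 and 51.2, with WT at 17.8, 23.3 and 19.5. The 3 scramble libraries were nearly equal and WT overlapped the Eif2b5 shRNA group. Its log2 fold change was -1.64 ± 0.19 (adjusted p = 0.000339), -1.26 with the offsets and -1.64 without scramble libraries 1 and 3 (adjusted p = 0.00284 and 0.01).

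Fxyd3, a regulator of the sodium pump, stood at 32.2, 31.6 and 27.7 CPM against 92.8, 83.3 and 80.7, with WT at 40.5, 42.4 and 33.5 (log2 fold change -1.49 ± 0.16, adjusted p = 0.000229; -1.19 with the offsets). Emp1, a tetraspan epithelial membrane protein, stood at 58.5, 57.5 and 40.4 CPM against 123, 109 and 135 (-1.23 ± 0.16, adjusted p = 0.00102). The tetraspanin Cd9 stood at 211, 173 and 153 CPM against 356, 349 and 395 (-1.03 ± 0.15, adjusted p = 0.00179). In each of these 3 genes the scramble libraries lay close together and above all others. Plet1, a surface protein of follicle and placental progenitors, stood at 15.2, 12.4 and 12.2 CPM against 28.4, 38.3 and 36.9 (-1.36 ± 0.23, adjusted p = 0.00318). Spcs1, a subunit of the signal peptidase, stood at 16.7, 29.1 and 20.7 CPM against 47.2, 57.2 and 43 (-1.12 ± 0.21, adjusted p = 0.00461). Hist1h2af, a replication-dependent histone H2A gene, fell (-0.74 ± 0.21, adjusted p = 0.0303; -1.13 with the offsets) although its coding GC was 69.2%. It stood at 47, 48.6 and 57.3 CPM against 69.1, 121 and 69.3, with scramble library 2 far the highest. WT, at 59.9, 70.3 and 50.3, overlapped both groups. Its -1.25 without scramble libraries 1 and 3 is a contrast with that high library only. Hist1h2af shares 97.4% of its coding bases with Hist1h2ab, so its reads may be split. Gm94, a predicted gene model, fell by 1.73 on the log2 scale (adjusted p = 0.00393). Krt6b, Krt16, Stfa3, Ndufa4 and Fxyd3 were called in all 22 of the RNA fits in which each was tested. They were taken from genes already called with the offsets and without scramble libraries 1 and 3, and those fits are among the 22. The fits also share libraries, so this count is no independent support.

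Among genes called with and without the offsets, the 12 with the highest fold changes ran from 1.25 to 1.91 on the log2 scale. Besides the keratins Krt6b, Krt6a, Krt19 and Krt16 they were Pet117, Adamts19, Tymp, Rassf8, Csf2ra, Rpl41, Rftn1 and Fadd. Csf2ra, the alpha chain of the GM-CSF receptor, stood at 25.5, 21.3 and 27.2 CPM against 8.97, 11.1 and 7.34, with WT at 18.6, 13.2 and 12.3, between the groups. Csf2ra had a log2 fold change of 1.47 ± 0.25 (adjusted p = 0.00291) and 0.91 with the offsets (adjusted p = 0.0235). Fadd, the adaptor of death receptors, stood at 29.6, 29.4 and 24.9 CPM against 11.6, 14.4 and 10.4 (1.25 ± 0.22, adjusted p = 0.00345). Pet117, an assembly factor of cytochrome c oxidase, stood at 12.6, 12.4 and 15.5 CPM against 3.82, 6.11 and 1.94 (1.91 ± 0.35, adjusted p = 0.00417; 2.18 with the offsets). For Fadd (25.5, 18.7 and 21 CPM) and Pet117 (10.9, 10.9 and 15 CPM), WT was above the scramble range and overlapped the Eif2b5 shRNA group. Tymp, thymidine phosphorylase, was 1.59 ± 0.32 higher, Rassf8 1.52 ± 0.29, the metalloprotease gene Adamts19 1.69 ± 0.34 and the lipid raft gene Rftn1 1.26 ± 0.33, all from 8.92 to 19.3 CPM in the Eif2b5 shRNA libraries. Rpl41, which encodes the shortest ribosomal protein, stood at 1610, 964 and 1310 CPM against 451, 724 and 386 (1.32 ± 0.22, adjusted p = 0.00317; 1.49 with the offsets). Ribosomal protein genes have many processed copies in the genome, so their counts are uncertain. Without scramble libraries 1 and 3, Krt6b and Krt16 were the only called genes of these 12, and the other adjusted p-values reached 0.423.

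The 12 lowest ran from -2.06 to -1.59, with coding GC of 39.5 to 51%. Predicted gene models such as Gm94 aside, they were Orm1, Gpr160, Zfp81, Tspan6, Stfa3, Lamp2, Ormdl2, Ndufa4, Dram2, Tmem33, Nup35 and Pex13. Orm1, an acute phase plasma protein, stood at 1.48, 3.55 and 1.88 CPM against 8.59, 14.4 and 8.2 (-2.06 ± 0.5, adjusted p = 0.0157). The orphan receptor gene Gpr160 stood at 4.44, 3.55 and 1.41 CPM against 12.4, 13.3 and 12.7, and at 3.24, 4.27 and 2.53 in WT (-1.97 ± 0.36, adjusted p = 0.00447). Ormdl2, a brake on sphingolipid synthesis, stood at 5.92, 9.93 and 5.64 CPM against 24.4, 22.8 and 22.7 (-1.68 ± 0.26, adjusted p = 0.00258; -1.47 with the offsets). In Gpr160 and Ormdl2 the 3 scramble libraries were nearly equal, library 2 included. Pex13, which imports proteins into peroxisomes, stood at 9.62, 14.9 and 13.2 CPM against 44.1, 28.9 and 38.4 (-1.59 ± 0.22, adjusted p = 0.00171). Tmem33, a protein of the endoplasmic reticulum, was at -1.63 ± 0.23, the lysosomal gene Dram2 at -1.63 ± 0.32, the nuclear pore gene Nup35 at -1.62 ± 0.32, the tetraspanin Tspan6 at -1.74 ± 0.29 and the zinc finger gene Zfp81 at -1.76 ± 0.29. WT was nearer the Eif2b5 shRNA group in 11 of the 12, beside 240 of all 282 genes called lower with and without the offsets. Without scramble libraries 1 and 3, Stfa3, Lamp2 and Ndufa4 stayed called and adjusted p-values of the others reached 0.441.

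Of the genes that lost their call with the offsets, the 4 highest were Tusc1, the hair keratin Krt83, the calcium channel gene Ryr1 and the chromatin remodelling gene Smarcd3, with coding GC from 57.8 to 76.7%. Tusc1 stood at 7.77, 7.8 and 18.3 CPM against 2.29, 7.22 and 3.45. Its log2 fold change of 1.55 ± 0.45 became 0.73 (adjusted p = 0.237). The 4 lowest were Gtf2a2, Zfp729b, Tmem161b and Zfp930, with coding GC from 38.6 to 42%. The general transcription factor gene Gtf2a2 stood at 2.96, 3.55 and 3.29 CPM against 8.4, 12.8 and 11.7, so the groups did not overlap, and its -1.7 ± 0.35 became -0.91 (adjusted p = 0.146).

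**Figure D4:**
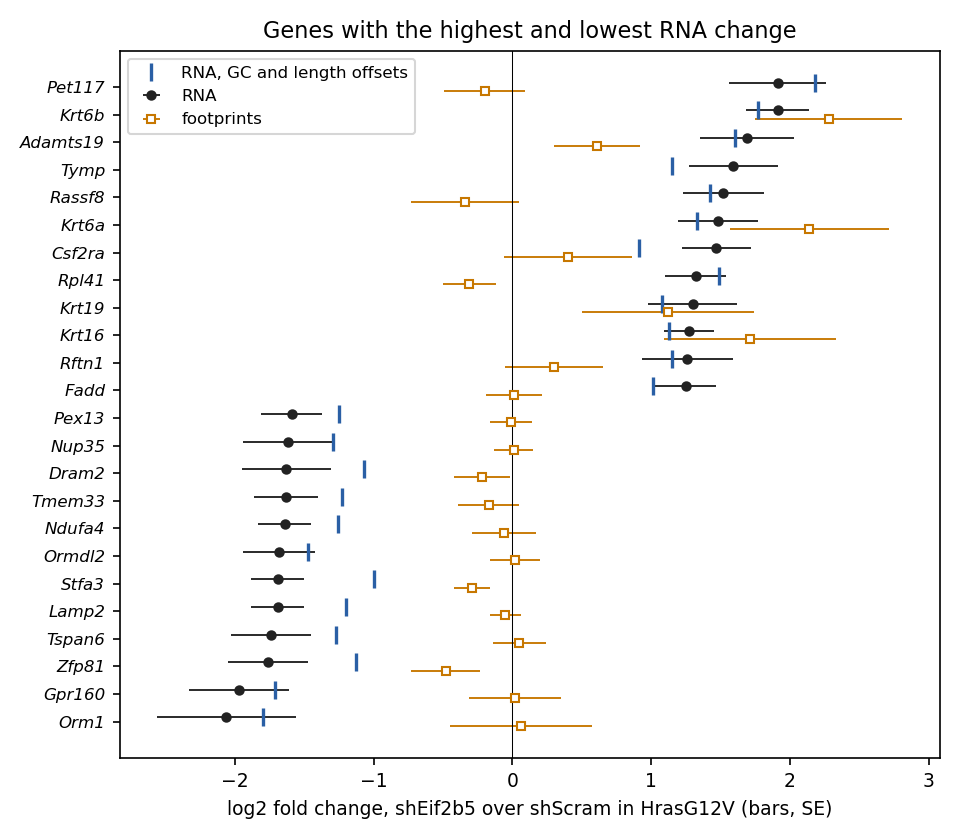
Log2 fold changes (horizontal axis) of the 12 highest and 12 lowest genes called with and without offsets, in RNA (filled circles, bars are SE), in RNA with offsets for coding GC and length (ticks) and in footprints (open squares, bars are SE; Tymp had too few footprints). Footprint changes of the 12 lowest stay between -0.48 and 0.06 while their RNA changes are -1.59 or lower; Krt6b, Krt6a and Krt16 are high in both.

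Footprint changes were smaller than RNA changes in the called genes. Over the 864 genes called lower, the median log2 fold change was -0.84 in RNA and -0.07 in footprints, and over the 580 called higher it was 0.69 and 0.06. Of the 864, 598 (69.2%) were also lower in footprints, beside 56.8% of all genes with the same sign in both. At an unadjusted p under 0.05 in footprints, 24 of the 864 were lower and 5 higher. Over all 10793 genes with both values, 320 had the same sign and 162 the opposite sign at that p. Among calls kept with the offsets, 64.2% of the lower and 56.4% of the higher genes had the same sign in footprints. Stfa3 footprints were at -0.29 ± 0.13 (adjusted p = 0.994). Lamp2 footprints stood at 433, 418 and 424 CPM against 443, 470 and 406, and Ndufa4 footprints at 203, 202 and 231 against 217, 241 and 203. Both groups overlapped in each. A test of the footprint change minus the RNA change, over all 18 libraries, called 228 of 10793 genes (2.11%), 194 with a higher and 34 with a lower footprint change. It called 10 of the 12 lowest genes (differences of 1.4 to 1.98 on the log2 scale), Orm1 and Zfp81 being the exceptions. Of the 11 highest that could be tested it called Pet117, Rassf8, Rpl41 and Fadd (-2.13 to -1.24). Of the 446 genes called with and without offsets, it called 143 of the 445 tested. This difference contains the RNA change itself, so it is not independent of the choice of these genes, and the count fell to 101 with offsets and ranged from 1 (without scramble replicate 3) to 948 (without scramble replicate 2) when 1 replicate was left out. It was 6 without Eif2b5 shRNA replicate 1, 2 without replicate 3 and 3 without scramble replicate 1.

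The gene lists below, 43 in all, are described by counts beside the shares over all genes, 5.23% higher and 7.79% lower. A member was called in 34 of them. In all 34 the count was lowest without Eif2b5 shRNA library 3 (0 in 25 lists) and highest without scramble library 2, ties included. Several lists had a share called near or below the 13% over all genes. Among these were other initiation factors (10%), cytosolic (15%) and mitochondrial (13%) ribosomal proteins and p53 targets (13.3%). Basal markers (12.5%), S phase (8.57%) and G2/M genes (6.25%) were also among them. Members of such lists are given as single genes and not as a result about the list.

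Of 9 genes of eIF2B and eIF2, Eif2s1, the alpha subunit that stress kinases phosphorylate, was lower: it stood at 52.6, 59.6 and 54.5 CPM against 83.6, 79.4 and 104 (log2 fold change -0.69 ± 0.16, adjusted p = 0.0137). With coding GC at 42.2% it was at -0.15 with the offsets (adjusted p = 0.551). With the offsets the beta subunit gene Eif2s2 was the 1 member called, and it was higher: it stood at 294, 197 and 214 CPM against 220, 156 and 185, with a log2 fold change of 0.32 (adjusted p = 0.219) that became 0.97 (adjusted p = 0.0075). The share of members called, 11.1%, was near the 13% over all genes. The other eIF2B subunits were at -0.65 (Eif2b1), 0.3 (Eif2b2), -0.46 (Eif2b3) and 0.16 (Eif2b4), all with adjusted p of 0.0624 or more. Of 33 tested ATF4 targets 1 rose and none fell, with a median of 0.1. The one that rose was Trib3, a pseudokinase that feeds back on the stress response, at 24.8, 23.8 and 23.5 CPM against 13.7, 13.3 and 9.71 (0.98 ± 0.25, adjusted p = 0.0175; 0.69 with the offsets, adjusted p = 0.0806). The groups were separate, and WT (15.8, 21.4 and 11.6 CPM) overlapped the scramble group. Atf4 itself stood at 231, 275 and 257 CPM against 270, 195 and 232 (0.13, adjusted p = 0.582), and its target Asns, asparagine synthetase, at 69.6, 50.4 and 55 against 76, 52.7 and 64.8 (-0.16, adjusted p = 0.647, and 0.05 with the offsets). Of 20 cytosolic tRNA synthetases, many of them ATF4 targets, Sars rose (0.55 ± 0.14, adjusted p = 0.0169; 0.56 with the offsets). Of 22 genes of ER folding and the unfolded protein response, the disulfide isomerases Pdia3 (-0.63 ± 0.15) and Pdia4 (-0.55 ± 0.14) and the co-chaperone Dnajb9 (-1.67 ± 0.44) fell, and none was called with the offsets.

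Initiation factors and ribosomal proteins were called in both directions. Of 30 other initiation factors, Eif3b (0.57 ± 0.14, adjusted p = 0.017) and Eif5b (0.48 ± 0.16, adjusted p = 0.0498) rose and Eif1, which helps choose the start codon, fell (-0.92 ± 0.17, adjusted p = 0.0049). Eif5b, a GTPase that joins the ribosomal subunits, was at 0.79 with the offsets (adjusted p = 0.0171). Eif3b was then at 0.44 (adjusted p = 0.0504) and Eif1 at -0.43 (adjusted p = 0.0865). Of 80 cytosolic ribosomal protein genes 5 rose and 7 fell, and with the offsets 7 rose and 3 fell. Rpl41 and Rps23 rose (Rps23 0.76 ± 0.17, adjusted p = 0.0111), and Rpl39 fell from 561, 296 and 421 CPM with the scramble to 180, 182 and 174 (-1.26 ± 0.18, adjusted p = 0.00179; -0.65 with the offsets). Of 77 mitochondrial ribosomal protein genes 3 rose and 7 fell, Mrps17 (-1.14 ± 0.23) and Mrpl22 (-1.38 ± 0.29) among those that fell also with the offsets. Of 31 splicing factors 5 rose and 2 fell. The SR proteins Srsf11, Srsf9, Srsf1 and Srsf4 rose by 0.49 to 0.67 on the log2 scale, Srsf11 also with the offsets (0.68, adjusted p = 0.0236).

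Of 77 nuclear genes of oxidative phosphorylation 19 fell and 3 rose (median -0.29), and with the offsets 10 fell and 6 rose (median -0.21). In the counts by complex Ndufa4 was placed in complex I and not in complex IV, the cytochrome c oxidase. On that placing, 6 of 37 genes of complex I fell and 2 rose, and with the offsets 3 fell and 5 rose. In complex III 3 of 9 fell (2 with the offsets), in complex IV 4 of 11 fell and 1 rose (2 and 0 with the offsets), and in the ATP synthase 5 of 15 fell (3 with the offsets). Besides Ndufa4, Cox7a2 of complex IV stood at 48.5, 53.9 and 51.2 CPM against 112, 91 and 109 (-1.03 ± 0.16, adjusted p = 0.00258; -0.72 with the offsets). Atp5l of the ATP synthase stood at 37, 52.5 and 35.7 CPM against 124, 68.3 and 123 (-1.35 ± 0.22, adjusted p = 0.00288; -0.98 with the offsets), with scramble library 2 the nearest to the other group. WT was at 51, 57.1 and 43.9 CPM for Cox7a2, overlapping the Eif2b5 shRNA group. The complex I genes Ndufv3 (0.82 ± 0.2) and Ndufb10 (0.61 ± 0.15) rose. Summed over the list, the 3 Eif2b5 shRNA libraries held 9330, 8580 and 8650 CPM and the scramble libraries 10000, 9230 and 10200, which overlap. The count of lower genes was 10 without Eif2b5 shRNA library 3 and 12 without scramble library 1 or 3, and the median was -0.12 without both.

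Of 36 proteasome genes 11 fell and none rose (median -0.3). The alpha ring of the 20S core held 5 of them, out of 7 subunits. Psma2 stood at 50.7, 52.1 and 40.4 CPM against 102, 84.4 and 127 (-1.14 ± 0.18, adjusted p = 0.00272; -0.88 with the offsets), and Psma3 at 44.8, 50.4 and 41.8 against 120, 71.1 and 134 (-1.26 ± 0.2, adjusted p = 0.00272; -0.71 with the offsets). The median coding GC of the 7 alpha subunits was 45.1%, and with the offsets 2 of them were called. Over the whole list 4 fell and 1 rose with the offsets. The count of 11 became 7 without Eif2b5 shRNA library 1, 5 without library 3 and 6 without scramble library 1 or 3. With scramble libraries 1 and 3 both left out, the median was -0.2.

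Of 25 genes of cholesterol synthesis 9 fell and none rose (median -0.31), and with the offsets 6 fell (median -0.32). Sc5d, which acts late in the pathway, stood at 15.9, 16.7 and 8.92 CPM against 44.9, 33.9 and 36 (-1.46 ± 0.23, adjusted p = 0.00272; -1.02 with the offsets). The isoprene isomerase Idi1 was at -1.21 ± 0.22, the sterol isomerase Ebp at -1.16 ± 0.22, the demethylase Cyp51 at -0.82 ± 0.18 and Dhcr7, the last enzyme, at -0.67 ± 0.15, all 4 called with the offsets. Summed over the list, the libraries held 2930, 2550 and 2550 CPM against 3440, 2740 and 2970, and 2490, 2520 and 2650 in WT, so the sums overlapped. The count was 3 without Eif2b5 shRNA library 3 or without scramble library 1, and 0 with scramble libraries 1 and 3 left out, when the median was -0.16. The footprint medians of the oxidative phosphorylation, proteasome and cholesterol lists were -0.05, -0.01 and -0.03. Antioxidant genes had 4 of 24 lower and none higher: the peroxiredoxins Prdx1 (-1.19 ± 0.24) and Prdx6 (-0.63 ± 0.16), Nfe2l2 (-0.59 ± 0.18), which encodes the regulator NRF2, and Gstp1 (-0.7 ± 0.21). Prdx6 and Gstp1 stayed called with the offsets.

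**Figure D5:**
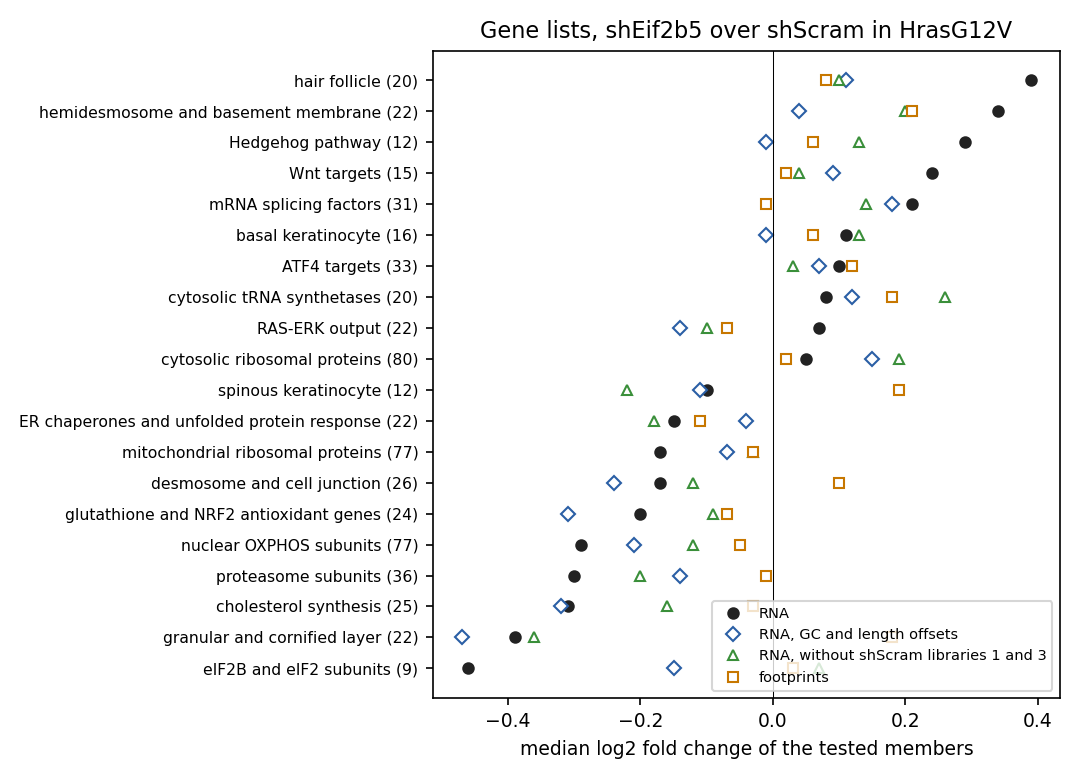
Median log2 fold change of the tested members (number in parentheses) of 20 gene lists, in RNA (filled circles), in RNA with offsets (diamonds), in RNA without HrasG12V shScram libraries 1 and 3 (triangles) and in footprints (squares). The lists of cholesterol synthesis, proteasome and oxidative phosphorylation sit at -0.31, -0.3 and -0.29 in RNA and at -0.03, -0.01 and -0.05 in footprints.

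Of 16 basal markers Krt14 (0.66 ± 0.19, adjusted p = 0.029) and Krt5 (0.61 ± 0.19, adjusted p = 0.042) rose. Krt14 stood at 3050, 2330 and 2780 CPM against 1520, 1960 and 1690, and at 2490, 2000 and 3130 in WT, which overlapped the Eif2b5 shRNA group only. Both lost the call with the offsets (adjusted p = 0.14 and 0.159). The basal list summed to 16700 to 18800 CPM against 11000 to 14700, with WT at 15800 to 20800. Of 12 spinous markers Krtdap and Dsg1a fell, and both lost the call with the offsets (-0.66 and -0.51, adjusted p = 0.121 and 0.0646). Of 22 granular and cornified markers 3 fell and none rose (median -0.39): the filaggrin relative Flg2 (-0.98 ± 0.23), the lipid transporter Abca12 (-0.74 ± 0.19) and the protease Asprv1 (-0.6 ± 0.19), and these 3 stayed called with the offsets. Flg2 stood at 145, 243 and 117 CPM against 376, 270 and 349. The summed granular list overlapped, with 4820 to 6770 CPM against 4240 to 8380, and the count of 3 became 0 without Eif2b5 shRNA library 3 or without scramble libraries 1 and 3 together, and 1 without Eif2b5 shRNA library 1, scramble library 1 or scramble library 3. Among 26 junction genes 4 fell and none rose, of which the connexin Gjb2 (-0.68 ± 0.15, adjusted p = 0.0113) stayed called with the offsets.

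Hair follicle genes were called higher in 5 of 20 cases, with none lower and a median of 0.39. Shh, the hedgehog ligand of the follicle bud, stood at 196, 111 and 178 CPM against 69.1, 107 and 67.1, with WT at 161, 166 and 167. Scramble library 2 was next to the lowest Eif2b5 shRNA library. Shh had a log2 fold change of 1.02 ± 0.21 (adjusted p = 0.00736), 0.62 with the offsets (adjusted p = 0.031), and the call was lost without Eif2b5 shRNA library 3 (adjusted p = 0.0505). Without scramble libraries 1 and 3, Shh was at 0.6. Lhx2, a transcription factor of follicle stem cells, stood at 308, 281 and 358 CPM against 260, 159 and 199 (0.61 ± 0.17, adjusted p = 0.0269). It lost the call with the offsets (0.32, adjusted p = 0.274) and kept it without scramble libraries 1 and 3 (0.99, adjusted p = 0.0421). Wnt10b (0.66 ± 0.15), Krt17 and Tbx1 (0.61 ± 0.19) lost it with the offsets. The list's median coding GC was 59.8%, and its median fold change 0.11 with the offsets. Of 15 Wnt targets Nkd1, Sp5 and Lef1 rose and the receptor gene Lgr5 fell, and Lef1 alone stayed called with the offsets (0.55, adjusted p = 0.0451). Without scramble libraries 1 and 3, Lef1 was at 0.19. Of 12 hedgehog pathway genes Shh and the signal transducer Smo (0.55 ± 0.15, adjusted p = 0.0254) rose. Smo lost the call with the offsets (0.2, adjusted p = 0.437). The follicle counts ranged from 0 (without Eif2b5 shRNA library 3) to 10 (without scramble library 2), with 1 without Eif2b5 shRNA library 1, 2 without scramble library 1 or 3 and 3 without WT library 1.

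Of 22 tested genes of RAS-ERK output, the ERK phosphatase gene Dusp5 rose (1.28 ± 0.4, adjusted p = 0.0438; 0.9 with the offsets, adjusted p = 0.143), and the median was 0.07. Dusp6, another ERK phosphatase, stood at 259, 214 and 215 CPM against 248, 200 and 290, well above WT at 92.7, 79.7 and 111 in both HrasG12V groups (-0.1, adjusted p = 0.704, and 0.2 without scramble libraries 1 and 3). Etv4, an ERK-induced transcription factor, stood at 104, 86.9 and 85.5 CPM against 108, 80.5 and 92.2, with WT at 27.5, 31.5 and 27.8 (-0.03, adjusted p = 0.917, and 0.2 without scramble libraries 1 and 3). In these 2 genes the HrasG12V groups overlapped and WT was apart. Among p53 targets the ubiquitin ligase Mdm2 (0.59 ± 0.16) and the death effector Bax (0.59 ± 0.16) rose, of 15 tested, and Mdm2 stayed called with the offsets (0.8, adjusted p = 0.00882). Of 35 S phase genes 2 rose and 1 fell, with Slbp, the histone mRNA binding protein, at 0.59 ± 0.16 (0.76 with the offsets). Of 32 G2/M genes Mad2l1, of the spindle checkpoint, fell (-1.3 ± 0.25, adjusted p = 0.00579; -0.83 with the offsets), as did Cdk1 (-0.72 ± 0.23, adjusted p = 0.0453), whose call was lost with the offsets.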

How the data were processed

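RNA and ribosome footprint libraries were counted by the authors over coding sequences. The deposited values are whole-number counts per gene, not normalized, and per the submitters' processing notes Bowtie, TopHat2 and HTSeq were used with mm10; strand handling is not given in the sources used here. Reads without molecular identifiers are not independent molecules. From these counts, genes passing edgeR's filterByExpr (minimum count 10, minimum total 15) were scaled by TMM and tested with edgeR's quasi-likelihood test (edgeR 4.0.16, R 4.3.3), with Benjamini-Hochberg adjusted p under 0.05 as a call. The 3 RNA groups shared 1 estimate of the spread. CPM values are scaled by the TMM library sizes. SE was derived from the test, as the absolute log2 fold change divided by the square root of its F statistic. Coding GC and length came from GENCODE M21, with 99.2% of gene names matched. Offsets were loess curves per library (span 0.3) on coding GC and then coding length.

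Named genes were Eif2b5, Hras and Fbxo32, the 12 highest and 12 lowest calls with non-overlapping groups, a call with offsets and 10 CPM or more in whichever group was higher, the 4 highest and 4 lowest that lost the call with offsets, and, for every gene list, no more than 4 calls, taken in order of p. Predicted gene models were left out, and other list members were named after their values were seen. Members and lists were chosen with earlier results of these data known. Alternatives covered scaling, filters, DESeq2 1.42.0, limma voom 3.58.1, the replicate block, offsets, libraries left out and genes of middling coding GC; offsets together with leaving out scramble libraries 1 and 3 was chosen after seeing the data. Some of the RNA fits, but not the footprint or difference fits, were run on simulated counts. The outcome is not given here.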

Additional observations from a re-analysis of the deposited data

How the results depend on the processing

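The 1444 RNA calls became 876 with only the 6 libraries compared, 602 with offsets for coding GC and length, 202 among the 3681 genes of middling coding GC, 17 without scramble libraries 1 and 3, and 11 with offsets as well, an alternative chosen after seeing the data. Leaving out 1 replicate gave 197 to 3150. Replicate numbers did not pair the libraries (same-number correlations of 0.02, -0.17 and -0.27); the replicate block gave 1226 calls, and 551 together with offsets. Footprint calls were 0, and 1 with no filter, 1 with the DESeq2 Wald test and 1 with the replicate block, with 0 to 31 when a replicate was left out. The 228 calls of the footprint minus RNA difference became 419 with the DESeq2 Wald test, 101 with the replicate block, 101 with offsets, 72 with block and offsets, and 1 to 948 with a replicate left out. The cause of these shifts was not tested.

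Among named genes, 4 changed sign. Asns was at 0.05 with offsets, 0.04 with block and offsets, 0.15 without scramble libraries 1 and 3, and 0.22 with offsets too. Dusp6 was at 0.2 without these libraries, 0.15 with offsets too, and at -0.22 to 0.03 with a replicate left out. Etv4 was at 0.2 and 0.11 in the same 2 fits, and at -0.12 to 0.09 with a replicate left out. Stfa1 was at 0.29 with offsets and without these libraries. Depth was lowest in scramble library 2 (1771365 counts), which limits every fit that rests on it alone.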
